A study of Mus musculus with 12 samples.

Results

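The transcripts of 44 cell cycle genes were followed in 12 RNA sequencing libraries of mouse T cells, 6 wild type (WT, Pdcd1+/+) and 6 knock-in (KI, Pdcd1KI/KI). They were chosen as a list of symbols, with earlier results of these data known. All 44 were found among 25793 gene rows of the count table. By role, 14 serve DNA replication, 19 serve mitosis and 11 are cyclins or cyclin-dependent kinases (Cdks). Pdcd1 encodes PD-1, an inhibitory receptor, and the series asks how it governs where follicular helper T cells sit and what they do.

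The cells were CD4+ OT-II T cells, which recognise an ovalbumin peptide, on the C57BL/6 background and marked with GFP by transduction. Cells of either genotype were moved into B6 mice beside MD4 B cells, which express dsRed and bind hen egg lysozyme. All recipients received HEL-OVA with LPS and alum under the skin. On day 5 the CXCR5hi GFP+ cells of the lymph node were sorted. Small pools of sorted cells were amplified with a protocol adapted from single-cell work. What the knock-in allele changes was not given in the sources used here. Each title also carries a first number, 1 or 2, and a second number, and their meaning was not given either. There were 3 libraries for each genotype and first number, written here as WT 1-1, KI 2-3 and so on. Nothing in the labels says that the libraries came from separate animals, so the p-values measure only the spread between these libraries, which may be technical.

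In a dividing cell, D-type cyclins with Cdk4 or Cdk6 start the cycle, cyclin E with Cdk2 opens DNA replication, and cyclins A and B with Cdk1 drive mitosis. E2F factors switch on replication genes, and factors bound at CHR and at CCAAT elements switch on many mitotic genes later in the cycle. Follicular helper T cells arise from T cells that divide after meeting antigen. Pooled libraries do not give the phase of any cell, so the 3 groups are groups of gene role. Fewer dividing cells and less of a transcript in each dividing cell cannot be told apart here.

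Stretches from upstream of Pcna, Rrm1, Rrm2, Cdk4 and Ccnd3 are shown because the transcripts of these members differed between the first title numbers in the results below, as did those of Smc4. Ccnd3 is shown at 2 annotated starts. They are RefSeq sequence of the build GRCm38.p6, and each is the 100 bases before the annotated start, read 5′ to 3′ on the gene's strand. Capitals mark the letters CCAAT, or ATTGG where the match lies on the other strand.
Pcna (chr2:132253181-132253280, minus strand): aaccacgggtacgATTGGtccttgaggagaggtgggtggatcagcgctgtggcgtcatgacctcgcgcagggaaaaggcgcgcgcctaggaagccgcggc
Rrm1 (chr7:102441595-102441694, plus strand): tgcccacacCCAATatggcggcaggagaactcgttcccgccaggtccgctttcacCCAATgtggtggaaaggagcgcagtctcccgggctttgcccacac
Rrm2 (chr12:24708154-24708253, plus strand): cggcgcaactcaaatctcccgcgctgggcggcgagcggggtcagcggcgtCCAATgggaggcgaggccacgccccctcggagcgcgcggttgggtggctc
Cdk4 (chr10:127063435-127063534, plus strand): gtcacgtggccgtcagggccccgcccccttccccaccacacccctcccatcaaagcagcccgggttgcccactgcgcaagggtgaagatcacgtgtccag
Ccnd3 (chr17:47504951-47505050, plus strand): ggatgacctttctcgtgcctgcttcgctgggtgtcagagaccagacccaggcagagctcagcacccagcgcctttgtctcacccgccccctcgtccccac
Ccnd3 (chr17:47593367-47593466, plus strand): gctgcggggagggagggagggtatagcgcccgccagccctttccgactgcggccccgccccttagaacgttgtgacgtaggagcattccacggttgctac

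The stretch of Rrm1 holds CCAAT at 2 places, those of Pcna and Rrm2 at 1 place, and those of Cdk4 and Ccnd3 hold none of the letters searched. Over the 250 bases upstream, on both strands, 36 of the 44 members had a RefSeq entry. CCAAT was present in 26 of them (72.2%), against 37.5% of 27025 mouse genes with such an entry. Ccnd3 was among the 26, with CCAAT in the 250 bases upstream of 1 of its 2 starts. The CHR-type letters TTTGAA or TTCGAA were present in 12 (33.3%), against 19.6% of genes. The E2F-type letters TTTCCCGC, TTTGGCGC or TTTCGCGC were present in 6 (16.7%), against 1.78% of genes. None of these letter strings contains another. The 12 members with CHR-type letters were Mcm2, Mcm7, Mki67, Top2a, Bub1b, Kif11, Ube2c, Cdc20, Hmgb2, Smc2, Ccnb2 and Cdk1. The 6 with E2F-type letters were Mcm5, Mcm6, Mcm7, Cdc6, Cdk1 and Cdk2. A match describes letters and not a bound factor.

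The libraries held 717506 to 1801504 counts assigned to genes and 10331 to 11115 genes with a count. The 44 members took 0.177% to 0.401% of those counts. WT 1-3, WT 1-2 and KI 2-1, which had the fewest counts, had the lowest shares (0.177%, 0.178% and 0.203%). KI 2-2, with the most counts, had the highest. The part of depth in the results below was not tested. Library WT 1-3 was the shallowest, and 43.8% of its reads were not uniquely aligned, against 26.7% in the lowest library. Pdcd1 lay at 166 to 523 counts per 1000000 (CPM) in the WT libraries and at 21.5 to 129.5 CPM in the KI libraries, with no overlap. The summed level of 6 T cell markers was 3156 to 4358 CPM, and that of 7 follicular helper markers was 1538 to 2295 CPM. The follicular helper markers include Pdcd1 itself, and among them Bcl6 and Il21 reached at most 17.4 and 17.8 CPM. Summed B cell markers stood at 117 to 346 CPM, with Pax5 at 0 in every library, Ebf1 in 11 and Cr2 in 7. Cd22 had the highest median of the B cell markers, at 130 CPM. Germinal centre B cell markers stood at 42.4 to 162 CPM with Rgs13 at 0 in every library. Summed myeloid markers ran from 1.24 to 222 CPM, highest in WT 1-3, and plasma cell markers from 51.2 to 207 CPM. Erythroid markers reached at most 5.08 CPM.

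Levels that can be compared between genes came from the deposited FPKM values, which are scaled by transcript length. Cdk4, which starts the cycle with D-type cyclins, had the highest mean FPKM of the cyclins and Cdks, at 109 ± 24.3 in WT and 153 ± 35.6 in KI (SD, n = 6 each). Ccnd2 and Ccnd3, the 2 D-type cyclins on the list, stood at 57.9 ± 13.6 and 66.0 ± 40.4 FPKM in WT. Cdk6, the other partner of the D-type cyclins, was at 0.929 ± 1.06 FPKM in WT and 0.314 ± 0.486 FPKM in KI, and was listed at 0 in 3 libraries of each genotype. Cdk4 and Cdk6 did not overlap in any library, whereas Ccnd2 and Ccnd3 overlapped.

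Pcna, the sliding clamp of DNA polymerases, led the replication genes at 96.7 ± 57.7 FPKM in WT and 124 ± 71.9 FPKM in KI. Mcm6, a subunit of the replicative helicase, followed at 47.6 ± 15.2 and 55.5 ± 21.2 FPKM. The 5 other helicase subunits on the list had WT means from 10.6 FPKM (Mcm7) to 17.7 FPKM (Mcm2). Cdc6, which loads the helicase onto origins, was listed at 0 in 5 of 6 WT libraries.

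Among the mitotic genes, Smc4, a core subunit of condensin, stood at 93.3 ± 54.0 FPKM in WT, the highest mean there, and at 55.1 ± 24.2 FPKM in KI. Its partner Smc2 was at 2.04 ± 1.16 and 1.71 ± 2.30 FPKM; both proteins sit in 1 complex. Hmgb2, a DNA-bending chromatin protein, stood at 38.9 ± 9.39 FPKM in WT and at 55.3 ± 29.6 FPKM in KI, level with Smc4 in KI. Mki67, the gene of the Ki-67 antigen, was at 2.59 ± 1.90 FPKM in WT. The checkpoint kinase genes Bub1 and Bub1b and the kinetochore gene Cenpf had means of at most 0.298 FPKM in either genotype.

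**Figure D1:**
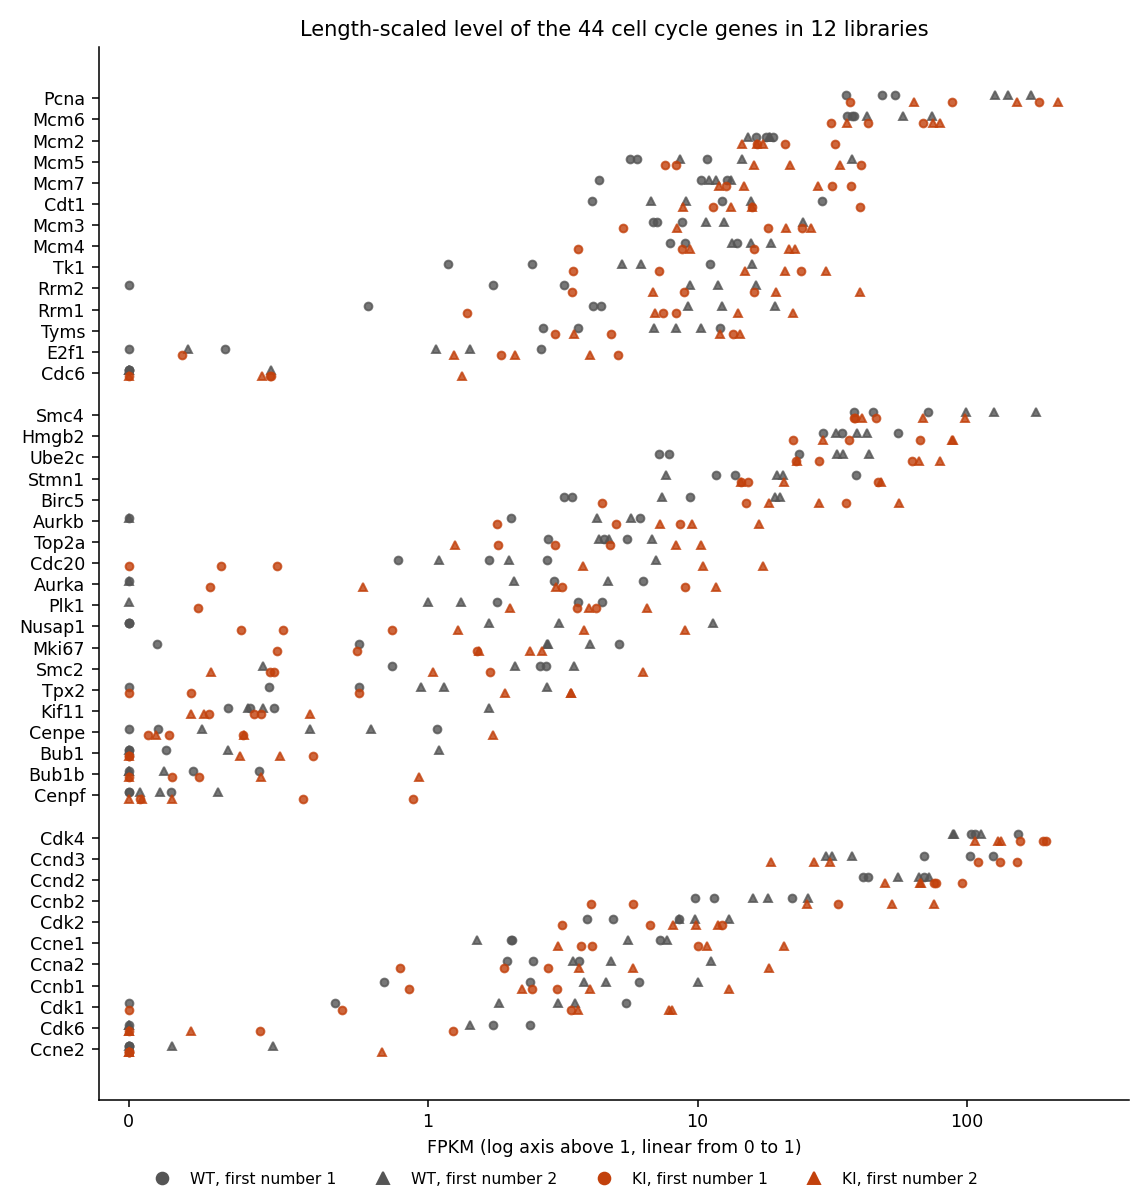
FPKM of the 44 members in the 12 libraries, on an axis that is linear from 0 to 1 and logarithmic above, with WT in grey, KI in orange, circles for first number 1 and triangles for first number 2. In WT, Cdk4, Pcna and Smc4 have the highest means of their groups, and Ccne2, Cdc6 and Cenpf lie at the far left of theirs.

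Of the 44 members, 30 had enough counts to be tested, among 7542 genes tested in all. The replication genes gave 12 of 14, with Cdc6 and E2f1, a factor that switches on replication genes, below the filter. The mitotic genes gave 11 of 19, without Bub1, Bub1b, Cenpe, Cenpf, Kif11, Tpx2, Cdc20 and Nusap1. The cyclins and Cdks gave 7 of 11, without Ccna2, Ccnb1, Ccne2 and Cdk6. The filter asks for enough counts in at least as many libraries as one genotype has, whichever those are. Members left out had at most 20.5 mean counts per library in either genotype and were not tested in these fits.

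The comparison named in the series' design is KI against WT. None of the 30 tested members passed an adjusted p of 0.05, where 0.0265% of all tested genes did (2 of 7542, both higher in KI). No gene passed as lower in KI, so Pdcd1 itself did not pass, although its libraries did not overlap. A member with such a difference could therefore also go uncalled in this fit. Estimates of 27 of the 30 members were above 0 on the log2 scale, where 51.6% of all genes were. The 27 held under TMM, RLE and upper-quartile scaling alike. The median log2 fold change was 0.40 over the members and 0.02 over all genes. An unadjusted p under 0.05 was reached by 4 members (13.3%), against 5.40% of all genes. These were Mcm7, Birc5 and Ube2c with positive estimates and Smc4 with a negative one, each with an adjusted p of at least 0.914. This fit leaves out the first title number. With that number as a covariate, 7 members had an unadjusted p under 0.05 (23.3%), 6 positive and 1 negative, against 8.33% of all genes. None of the members passed there either, where 0.0530% of all genes did (3 higher and 1 lower in KI). The smallest adjusted p of a member was 0.209, for Smc4 (-0.70 ± 0.18 SE). The libraries of the genotypes did not overlap in 0.371% of all tested genes (0.225% higher and 0.146% lower in KI) and overlapped in every tested member.

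All 12 tested replication genes had positive estimates, from 0.01 for Mcm4 to 1.16 for Tk1, with a median of 0.35 and a median standard error of 0.39. Mcm7, a helicase subunit, ran from 16.5 through a median of 39.4 to 46.5 CPM in WT and from 41.2 through 69.7 to 127 CPM in KI. Its log2 fold change was 1.01 ± 0.34 (SE, unadjusted p = 0.0071, adjusted p = 0.914). In 4 KI libraries Mcm7 exceeded every WT library, and the other 2 lay within the WT range. Its exons overlap Ap4m1 and Cops6 on the other strand and Mir25 and Mir93 on the same strand, and whether the counting used strand was not given in the sources used here.

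Tk1, thymidine kinase of the salvage pathway, spanned 2.36 to 28.2 CPM in WT with a median of 9.78, and 6.18 to 55.4 CPM in KI with a median of 33.2. The estimate was 1.16 ± 0.59 (SE, adjusted p = 0.919), and 4 KI libraries lay above all WT libraries. Rrm2, the small subunit of ribonucleotide reductase, had a similar estimate of 1.06 ± 0.64 (SE, adjusted p = 0.938). Its WT libraries spanned 0 to 46.1 CPM with a median of 19.4, and its KI libraries 10.5 to 104 CPM with a median of 33.7, so that 2 KI libraries stood above WT. Tk1 exons overlap Afmid on the other strand.

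Mcm5, another helicase subunit, spanned 25.1, 51.6 and 166 CPM (lowest, median, highest) in WT and 35.0, 98.6 and 164 CPM in KI. The ranges nearly coincided, and the estimate was 0.54 ± 0.44 (SE, adjusted p = 0.938). Pcna was likewise spread in both genotypes, at 43.6, 112 and 196 CPM in WT and 49.6, 146 and 229 CPM in KI, with an estimate of 0.32 ± 0.37 (SE, adjusted p = 0.948). The remaining replication genes, Mcm2, Mcm3, Mcm4, Mcm6, Rrm1 (the large subunit of ribonucleotide reductase), Tyms (thymidylate synthase) and Cdt1 (a helicase loader), had estimates from 0.01 to 0.49.

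The mitotic genes did not share a direction: 8 of 11 estimates were positive and 3 were negative, with a median of 0.42. Birc5, which encodes survivin of the chromosomal passenger complex, lay at 5.37, 10.6 and 24.2 CPM in WT and at 5.50, 33.0 and 62.9 CPM in KI. The estimate was 1.24 ± 0.52 (SE, unadjusted p = 0.028, adjusted p = 0.917), with 4 KI libraries above all WT libraries. Aurkb, the kinase of the same complex, had an estimate of 1.35 ± 0.73 (SE, adjusted p = 0.919). Aurkb was at 0 in 2 WT libraries and in no KI library, and its highest WT level was 15.3 CPM against 39.0 CPM in KI. Ube2c, the ubiquitin-conjugating partner of the anaphase-promoting complex, spanned 9.44, 32.7 and 49.5 CPM in WT and 28.2, 57.5 and 83.8 CPM in KI. Its estimate was 0.91 ± 0.42 (SE, unadjusted p = 0.043, adjusted p = 0.917), and its exons overlap Tnnc2 on the other strand.

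Smc4 went the other way. It spanned 276, 458 and 964 CPM in WT and 216, 259 and 492.6 CPM in KI, an estimate of -0.77 ± 0.29 (SE, unadjusted p = 0.017, adjusted p = 0.914), and 3 KI libraries lay below every WT library. Mki67 also had a negative estimate, -0.64 ± 0.56 (SE, adjusted p = 0.943), at 1.79, 36.8 and 68.4 CPM in WT and 6.87, 19.9 and 48.6 CPM in KI. Every KI library of Mki67 lay within the WT range. The third, Smc2, was at -0.41 ± 0.68 (SE, adjusted p = 0.964). Top2a, the DNA topoisomerase that untangles chromosomes, was at 26.8, 35.2 and 46.4 CPM in WT and at 11.2, 27.3 and 69.7 CPM in KI, an estimate of 0.01 ± 0.43 (SE). The KI libraries of Top2a extended past the WT range on both sides. Aurka, Plk1, Hmgb2 and Stmn1, a microtubule-destabilising protein, had estimates from 0.15 to 0.69.

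All 7 tested cyclins and Cdks had positive estimates, from 0.03 for Cdk2 to 0.86 for Ccnb2, and none had an unadjusted p under 0.05. Cdk4 came nearest, with an unadjusted p of 0.056 and an estimate of 0.41 ± 0.20 (SE, adjusted p = 0.919). With the first number as a covariate, the unadjusted p of Cdk4 was 0.011 (adjusted p = 0.421). It spanned 153, 201 and 265 CPM in WT and 205, 267 and 349.7 CPM in KI. Ccnb2, a B-type cyclin, lay in a narrow WT range of 25.9, 33.4 and 50.1 CPM and a wide KI range of 8.68, 62.3 and 154 CPM. Its estimate was 0.86 ± 0.50 (SE, adjusted p = 0.938), and the KI libraries lay both above and below WT.

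Ccne1, which encodes cyclin E1, had an estimate of 0.80 ± 0.51 (SE, adjusted p = 0.938). The D-type cyclin Ccnd2 was at 377, 473 and 549.6 CPM in WT and 476, 572 and 666 CPM in KI, with an estimate of 0.28 ± 0.17 (SE, adjusted p = 0.938). Ccnd3 spanned 64.6, 152 and 309 CPM in WT and 40.9, 167 and 327 CPM in KI, and in both genotypes the libraries fell into a high and a low set by first title number. Cdk1, the mitotic kinase, was at 0 in 1 library of each genotype and reached 20.2 CPM in WT and 31.2 CPM in KI, an estimate of 0.67 ± 0.80 (SE). Cyclin B1 (Ccnb1), below the filter, was at 1.69, 7.31 and 21.3 CPM in WT and 2.54, 5.78 and 9.26 CPM in KI. Cdk6 was at 0 in 3 libraries of each genotype and at most 10.7 CPM in WT and 4.12 CPM in KI. Summed B cell markers were 149 to 346 CPM in WT and 117 to 236 CPM in KI, and their part in the results by genotype was not tested.

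**Figure D2:**
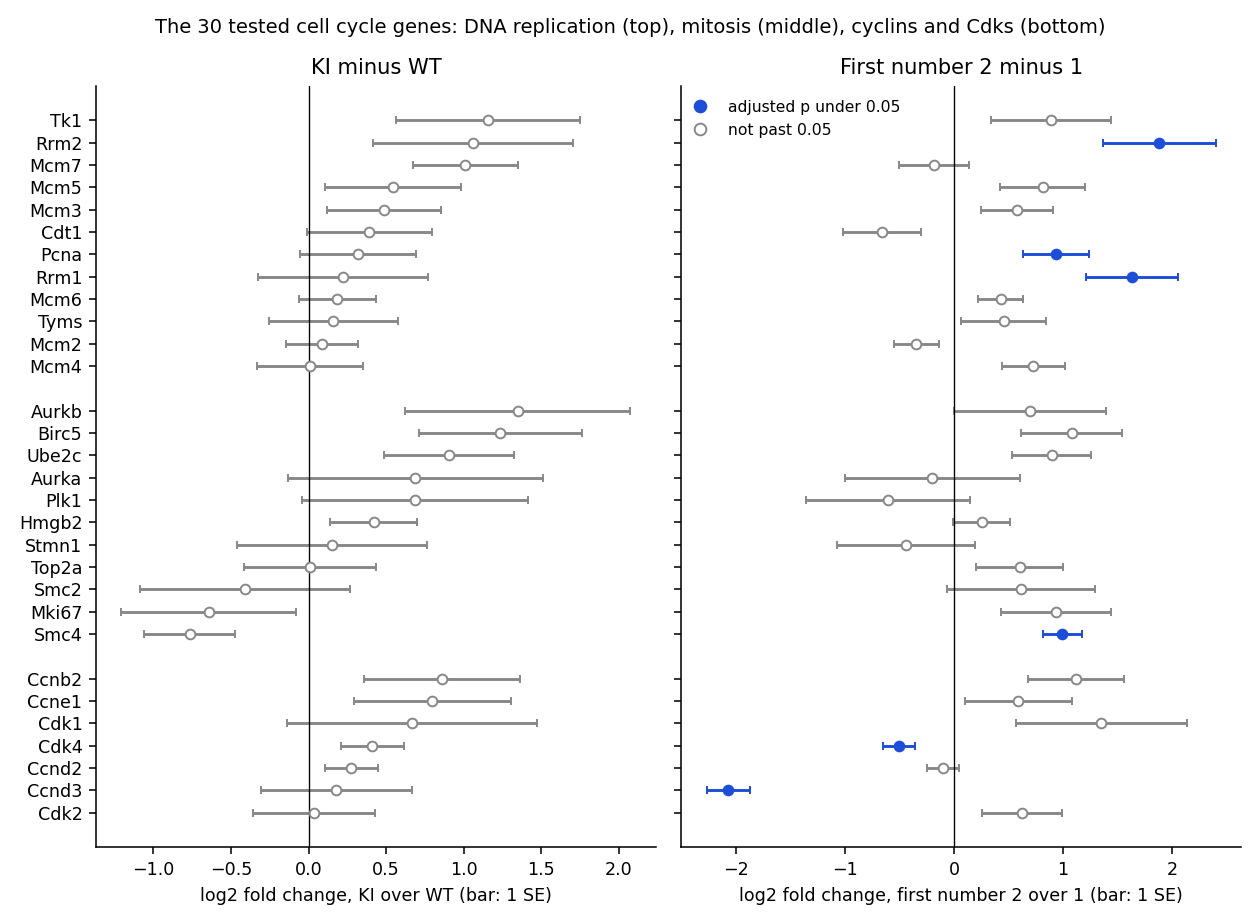
Estimated log2 fold change with 1 standard error for the 30 tested members, KI over WT on the left and first number 2 over 1 on the right, with filled blue points for an adjusted p under 0.05. On the left no point is filled and 27 of 30 lie above 0, whereas on the right 6 points are filled, among them Ccnd3 at -2.07 and Rrm2 at 1.88.

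A score for each group, the mean log2 CPM of its tested members in a library, shows how the groups varied together. The replication score was 5.48 ± 0.52 in WT and 5.97 ± 0.57 in KI (SD, n = 6 each), a difference of 0.49. The mitosis score was 4.50 ± 0.40 in WT and 4.84 ± 0.69 in KI, a difference of 0.34. The score of cyclins and Cdks was 5.74 ± 0.31 in WT and 6.03 ± 0.47 in KI, a difference of 0.29. The genotypes overlapped in all 3 scores, and each difference was less than the larger of its SDs. The mitosis difference depended on how members were weighted: on the log2 of summed CPM, to which Smc4 contributes most, it was -0.24.

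Single libraries stood out within genotypes. KI 2-2 and KI 2-3 were among the 3 highest libraries in every score. KI 1-1 reached 6.42 in the replication score while KI 1-2 and KI 1-3 were at 5.35 and 5.30, and for cyclins and Cdks it was highest of all at 6.47 against 5.42 and 5.50. WT 1-1 stood at 5.08 in the mitosis score, above WT 1-2 at 4.09 and WT 1-3 at 4.16. With any 1 library left out, the KI minus WT difference was 0.33 to 0.63 for replication genes, 0.15 to 0.55 for mitotic genes and 0.21 to 0.41 for cyclins and Cdks. Among the 3 libraries alike in genotype and first number, the median SD of log2(CPM + 1) was 0.80 for the 30 members and 0.58 for all 7542 genes. It was 0.89 for mitotic genes, 0.73 for replication genes and 0.47 for cyclins and Cdks, with no matching of genes by level.

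**Figure D3:**
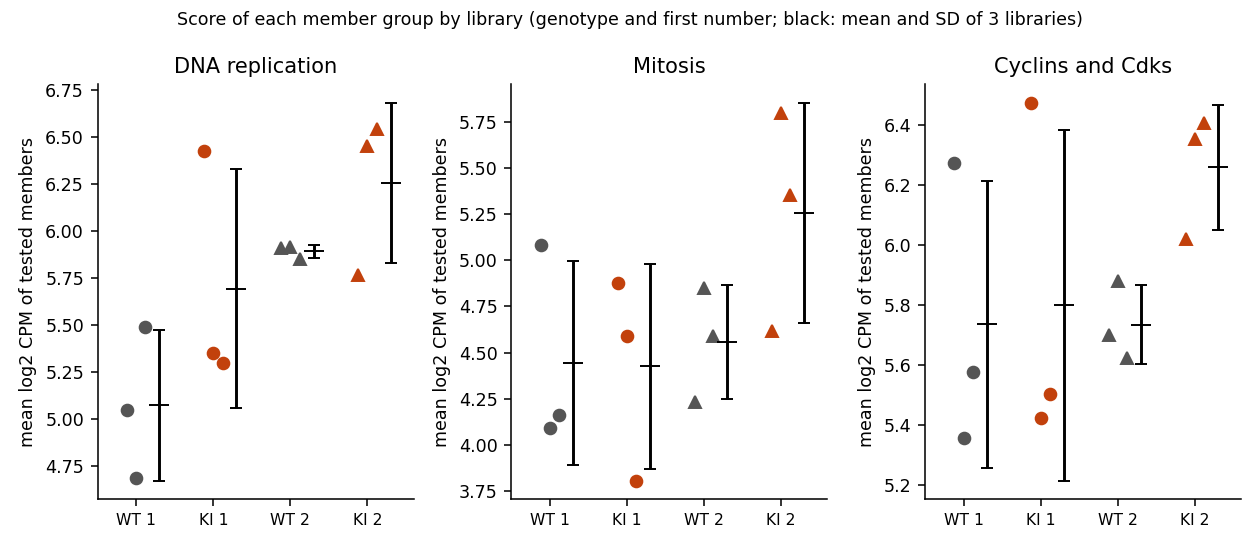
Mean log2 CPM of the tested members of each group in each library, by genotype and first title number, with the mean and SD of 3 libraries in black. KI 1-1 stands apart from the other KI libraries of number 1 in replication genes and in cyclins and Cdks, and the WT libraries of number 2 lie close together in replication genes.

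The first title number separated the members more than genotype did. With genotype in the model, 6 of 30 members passed between number 2 and number 1 (20%), where 16.0% of all tested genes did. Of these, 4 were higher in number 2 (Pcna, Rrm1, Rrm2 and Smc4), against a background of 8.47% of all genes, and 2 were lower (Ccnd3 and Cdk4), against 7.54%. The share of members was thus near that of all genes. Without KI 2-2, 3 members and 751 genes passed. An unadjusted p under 0.05 was reached by 11 members (36.7%), against 30.4% of all genes. The median log2 fold change was 0.61 over the members, with 21 estimates above 0, and 0.01 over all genes, of which 50.4% were above 0.

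Ccnd3, at chr17:47642000-47736632 on the plus strand (NCBIM37, the build called mm9), encodes cyclin D3. It was at 221, 282 and 327 CPM (lowest, median, highest) in the 6 number 1 libraries and at 40.9, 64.9 and 82.3 CPM in the 6 number 2 libraries. Every number 2 library lay below every number 1 library, in both genotypes. The log2 fold change was -2.07 ± 0.20 (SE, adjusted p = 1.5e-06), -1.86 within WT alone (adjusted p = 0.0050) and -2.31 within KI alone (adjusted p = 0.00048). Ccnd3 stayed past the threshold whichever library was left out. Its exons overlap Bysl on the other strand. Cdk4, the kinase partner of cyclin D3, fell by 0.50 ± 0.15 (SE, adjusted p = 0.024), from 211, 280.1 and 349.7 CPM to 153, 198 and 239 CPM. Its exons overlap Tspan31 on the other strand. The 2 sets of Cdk4 libraries overlapped, and its adjusted p rose to 0.0532 without WT 1-1, 0.0518 without WT 2-2, 0.0588 without KI 1-3 and 0.0596 without KI 2-2. Ccnd2 had an estimate of -0.11 ± 0.15 (SE, adjusted p = 0.672).

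Both subunits of ribonucleotide reductase, the enzyme that makes the building blocks of DNA, were higher in number 2. Rrm1, at chr7:109590209-109618285 on the plus strand (NCBIM37), was at 4.19, 28.5 and 42.8 CPM in number 1 and at 48.6, 70.8 and 109 CPM in number 2. All 6 number 2 libraries lay above all 6 number 1 libraries. It rose by 1.63 ± 0.42 on the log2 scale (SE, adjusted p = 0.011) and stayed past the threshold whichever library was left out. Rrm2 rose by 1.88 ± 0.52 (SE, adjusted p = 0.016), from 0, 11.5 and 41.3 CPM to 24.9, 40.4 and 104 CPM, with an overlap. Its adjusted p was 0.0739 without KI 2-2. Across all genes 6.48% had libraries of the 2 numbers that did not overlap (2.97% higher and 3.51% lower in number 2), and among the 30 tested members these were Rrm1 and Ccnd3.

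Smc4, at chr3:68808660-68838545 on the plus strand (NCBIM37), rose by 0.99 ± 0.18 (SE, adjusted p = 0.00073) and stayed past the threshold whichever library was left out. It was at 216, 252 and 389 CPM in number 1 and at 290.5, 510.1 and 964 CPM in number 2, and 4 number 2 libraries lay above every number 1 library. Pcna rose by 0.94 ± 0.30 (SE, adjusted p = 0.037), from 43.6, 70.8 and 202 CPM to 89.8, 171 and 229 CPM. Within WT the 3 number 1 libraries of Pcna were at 43.6 to 78.7 CPM and the 3 number 2 libraries at 145 to 196 CPM, a fold change of 1.43 (log2, adjusted p = 0.021), whereas within KI the numbers overlapped (0.45, adjusted p = 0.568). The test of that difference did not pass (adjusted p = 0.740). The call of Pcna held only in the fits without KI 1-1 (adjusted p = 0.0042) or without KI 2-1 (0.012), and its adjusted p was 0.0511 to 0.109 when any of the other 10 libraries was left out. With the libraries summed over the second number, which leaves 4 samples, Ccnd3 alone of the 6 passed (adjusted p = 0.030).

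The other 24 tested members did not pass. Those with the largest positive estimates were Cdk1 (1.35 ± 0.78 SE), Ccnb2 (1.12 ± 0.44 SE) and Birc5 (1.08 ± 0.46 SE), with adjusted p of 0.254, 0.0856 and 0.115. Among the helicase subunits, Mcm3, Mcm4, Mcm5 and Mcm6 had estimates of 0.43 to 0.81 and Mcm2 and Mcm7 of -0.35 and -0.18. Of members below the filter, which were not tested in this fit, the spindle gene Tpx2 was at 0 to 4.19 CPM in number 1 and 5.28 to 19.4 CPM in number 2, and the spindle gene Nusap1 at 0 to 3.72 and 6.23 to 42.7 CPM. Cdc20, the activator of the anaphase-promoting complex, was at 0 to 1.24 CPM in the KI libraries of number 1 and at 9.97 to 40.2 CPM in those of number 2. In WT the number 1 libraries of Cdc20 were at 2.36 to 6.28 CPM and the number 2 libraries at 2.51 to 16.6 CPM. Tpx2, Nusap1 and Cdc20 were singled out after their values were seen, so these ranges are a description. Cdc20 and Nusap1 share exon sequence with Elovl1 and Oip5 on the other strand.

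**Figure D4:**
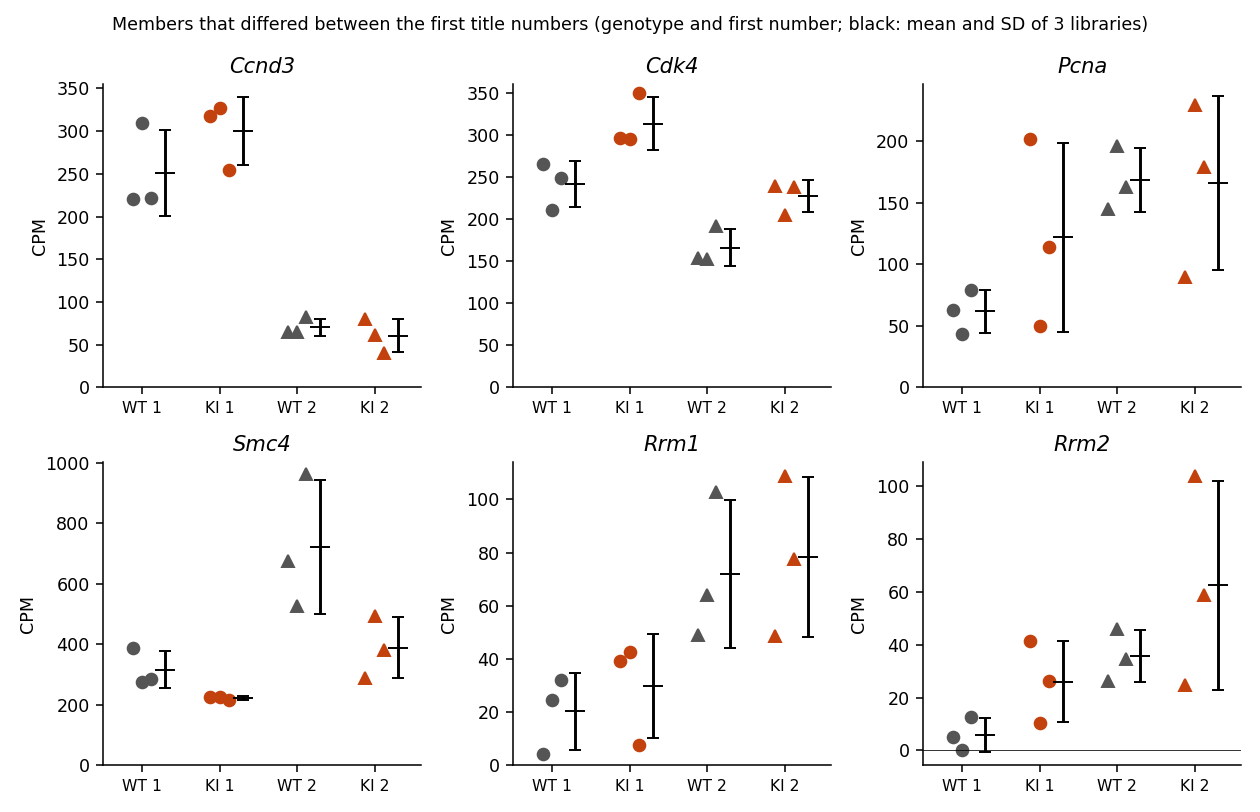
CPM of the 6 members that passed between the first title numbers, by genotype and number, with the mean and SD of 3 libraries in black. Ccnd3 and Cdk4 are lower and Pcna, Smc4, Rrm1 and Rrm2 higher in number 2, and only for Ccnd3 and Rrm1 do the 2 numbers not overlap.

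Other transcripts differed between the numbers as well. Summed cytotoxic lymphocyte markers were 47.2 to 184 CPM in number 1 and 209 to 455 CPM in number 2. Nkg7, at 37.7 to 401 CPM, was the largest contributor. Cd8b1 was present in every library, at 2.06 to 49.5 CPM, and Cd8a reached 16.6 CPM and was at 0 in 5 libraries. Ncr1 was at 0 in every library, Gzma in 11, Klrd1 in 9 and Gzmb in 8, and Prf1 reached at most 10.1 CPM. Summed germinal centre B cell markers were 109 to 162 CPM in number 1 and 42.4 to 73.2 CPM in number 2, with Rgs13 at 0 in every library and S1pr2, which follicular helper T cells also express, the largest contributor. Neither pair of ranges overlapped. B cell markers were 117 to 236 CPM and 179 to 346 CPM, an overlap. Their part in the members' differences by number was not tested.

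By score, replication genes were 0.69 higher in number 2, at 5.38 ± 0.58 against 6.07 ± 0.33 (SD, n = 6 each), and 0.82 higher within WT and 0.56 within KI. Within WT the 3 number 2 libraries (5.85 to 5.91) lay above the 3 number 1 libraries (4.69 to 5.49). The mitosis score was 0.47 higher, by 0.11 within WT and 0.83 within KI. The score of cyclins and Cdks was 0.23 higher, and by the log2 of summed CPM, to which Ccnd2, Ccnd3 and Cdk4 contribute most, it was -0.36.

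Because both genotypes carry both numbers, KI was also set against WT within each. The replication score was 0.62 higher in KI at number 1 and 0.36 higher at number 2. The mitosis score differed by -0.02 at number 1 and 0.70 at number 2, and that of cyclins and Cdks by 0.06 and 0.52. Of 28 members tested in both, 16 had positive estimates at both numbers and 2, Mki67 and Smc4, had negative ones at both. A further 7 were negative at number 1 and positive at number 2, and 3 the reverse. No member passed within either number.

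The interaction of genotype and number tests whether these differences differ. No member and no other of the 7542 genes passed (0%) with edgeR, where 544 genes had an unadjusted p under 0.05 (7.21%), and DESeq2 gave 7 genes and no member. Without WT 1-1 24 genes passed, without WT 1-3 1 gene, and without a filter 140 genes, none of them a member. The 4 members with an unadjusted p under 0.05 (13.3%) were Plk1, a mitotic kinase, Stmn1, Hmgb2 and Ccnb2, each with an adjusted p of at least 0.654. Ccnb2 was at 25.9, 28.6 and 44.7 CPM in WT and 8.68, 11.7 and 59.7 CPM in KI at number 1. At number 2 it was at 31.4, 35.5 and 50.1 CPM in WT and at 64.8, 96.5 and 154 CPM in KI. Within number 2 alone Ccnb2 did not pass with edgeR (adjusted p = 0.472). Hmgb2 was at 119, 168 and 195 CPM in WT and 82.5, 140.1 and 212 CPM in KI at number 1, and at 114, 135 and 147 CPM and 133, 283 and 323 CPM at number 2.

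**Figure D5:**
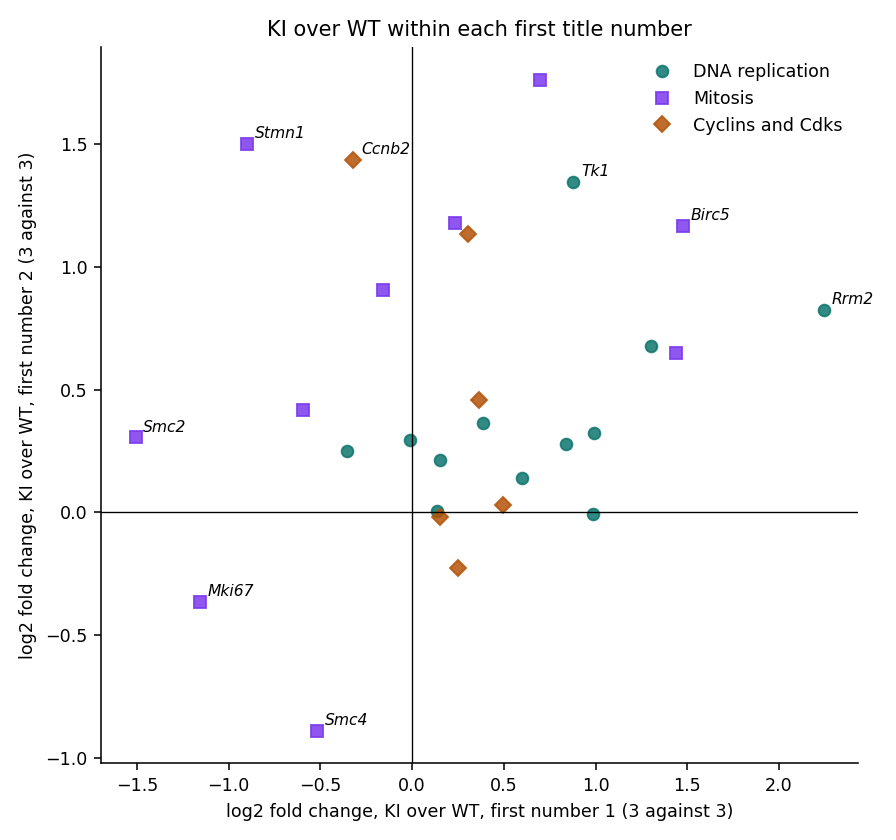
Log2 fold change of KI over WT at first number 1 (horizontal) and first number 2 (vertical) for the 28 members tested in both, coloured by group, with 3 libraries against 3 on each axis. Of the points, 16 lie above 0 on both axes, Mki67 and Smc4 lie below 0 on both, and Stmn1, Ccnb2 and Smc2 are among the 7 at upper left.

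A second list of 68 cell cycle genes that are not among the 44 was read in the same fits, and 35 were tested. Between the genotypes none passed, 29 had positive estimates and the median was 0.29. An unadjusted p under 0.05 was reached by 4 (11.4%), against 5.40% of all genes. Of these, E2f2, an E2F factor, and Cks1b, a Cdk-binding subunit, had estimates of 0.69 ± 0.27 and 1.06 ± 0.46 (SE, adjusted p = 0.914 and 0.917). Cdkn1b, which encodes the Cdk inhibitor p27, had an estimate of -1.65 ± 0.66 (SE, adjusted p = 0.914), and Btg1, an antiproliferative gene, of -0.71 ± 0.21 (SE, adjusted p = 0.914). The other 2 tested inhibitors, Cdkn2c and Btg2, had estimates of 0.038 and 0.036. Cdkn1b ranged over 17.4 to 344 CPM in WT, highest in the shallow library WT 1-3, and 8.77 to 66.1 CPM in KI. Its mean counts, not scaled for depth, were 119 in WT and 46.3 in KI at number 1, and 37.0 and 30.7 at number 2. The WT libraries of number 1 include the shallow WT 1-2 and WT 1-3. The interaction estimates of Cdkn1b and Btg1 were 2.72 ± 0.95 and 1.08 ± 0.31 (SE). Their unadjusted p were 0.0091 and 0.0019, and neither passed (adjusted p = 0.496 and 0.333). Myc, Foxm1 and Cdkn1a were below the filter, with means of at most 8.64 CPM in either genotype.

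Between the first numbers, 7 of these 35 genes passed (20%), 6 of them higher in number 2, a share near the 16.0% of all genes (8.47% higher and 7.54% lower). Rfc4, which loads Pcna onto DNA, rose by 1.55 ± 0.48 (SE, adjusted p = 0.031). Cks2, a Cdk-binding subunit, rose by 1.44 ± 0.35 (SE, adjusted p = 0.0075), and Mad2l1 of the spindle checkpoint by 2.05 ± 0.68 (SE, adjusted p = 0.044). The E2F partner Tfdp1 and the E2F-binding repressors Rb1 and Rbl2 also rose, by 1.08, 1.79 and 1.23. Cdc25b, a phosphatase that activates Cdks, fell by 1.31 ± 0.18 (SE, adjusted p = 8.4e-05), from 257 to 448 CPM in number 1 to 90.6 to 154 CPM in number 2, with no overlap.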

How the data were processed

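The authors deposited a table of read counts per gene symbol and a table of FPKM values. Per the submitters' processing notes, CASAVA, TopHat2, Cufflinks, HTSeq and DESeq2 were used with the build mm9. Use of strand was not given in the sources used here. Tests ran in edgeR 4.0.16 under R 4.3.3. The default filterByExpr rule by genotype kept 7542 genes, TMM scaled the libraries, and the quasi-likelihood F test gave p-values, adjusted by Benjamini-Hochberg over all 7542 genes with a threshold of 0.05. The 5 summary entries of unassigned reads stayed out of library totals. KI minus WT had no covariate, the contrast of first numbers had genotype as one, and the interaction had both. CPM are counts per 1000000 of the TMM-scaled total. Scores used a prior count of 2 and had no test. Positions and exon overlaps came from a GENCODE annotation of NCBIM37. The scripts were also run on simulated counts with planted differences by genotype. These were larger than any member's estimate in the edgeR fits of KI against WT over all 12 libraries. Recovery of smaller differences was not checked. Over 30 pairs of libraries of one genotype, the chi-square per degree of freedom was 8.58 to 37.0, so none agreed within sampling noise.

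The members and the lists were chosen with earlier results of these data known. Each member was to be named, with full values for members passing a fit, the 3 smallest p by genotype and the 2 largest differences by number in each group, and 10 fixed genes. Alternatives were DESeq2 1.42.0, limma-voom (limma 3.58.1), other scalings and filters, limma on log2(FPKM + 1) and log2(FPKM + 0.1), blocks by title numbers, each number or genotype alone, libraries summed over the second number, and each library left out.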

Additional observations from a re-analysis of the deposited data

Results flagged for a closer look

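Each of the 18 genes given with full values and each of the 3 scores was examined for a single library far from the rest of its genotype, which makes 42 sets of 6 libraries. Chance alone would mark about 1 in 20 such sets, and 1 was marked. Mcm5 in WT library 2-2 stood at 166 CPM, and the next highest WT library was at 68.0 CPM. That gap was 0.695 of the whole WT range, above the limit of 0.625 for 6 libraries. Without this library the log2 fold change of Mcm5, KI over WT, was 1.10 in place of 0.54, with an adjusted p that still did not pass.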

How the results depend on the processing

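Between the genotypes no member passed under any alternative run. The number of all genes passing, 2 as reported, was 11 with DESeq2, 4 without a filter, 1 with limma-voom, 3 within number 1 alone, 1 within number 2 alone, 0 with either FPKM pseudocount, 0 with summed libraries and 0 to 2 with each library left out. A replicate block by first number gave 4, again with no member. Members with positive estimates, 27 of 30, were 22 with limma-voom, 25 with either block and 22 to 27 with a library left out. Deviations of each library from its genotype mean were correlated between WT and KI libraries. Pairs with the same first number correlated at 0.0392 to 0.390, over 0.1 in 15 of 18 pairs. Those with different first numbers correlated at -0.328 to 0.0135, over 0.1 in 0 of 18. Deviations within a genotype sum to 0, so the second range is not separate evidence. The labels do not say what the number marks and not every pair was over 0.1, so the block was kept as an alternative.

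Between the numbers, members passing were 6, and 10 without a filter, 3 without a genotype term, 3 in WT alone, 2 in KI alone, 1 (Ccnd3) with summed libraries and 3 to 8 with a library left out, lowest without KI 2-2. All genes passing were 1208, and 782 with FPKM and a pseudocount of 0.1, 381 in WT alone, 359 in KI alone, 122 with summed libraries and 751 to 1252 with a library left out, lowest without KI 2-2. The score of cyclins and Cdks by number was 0.69 as a median and -0.36 by summed CPM, and the mitosis score by genotype -0.24 by summed CPM.

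Estimates by genotype changed sign as follows. With limma-voom they were -0.21 for Mcm4, -0.22 for Top2a, -0.0074 for Tyms, -0.14 for Cdk1 and -0.10 for Cdk2. With FPKM and pseudocounts of 1 and 0.1 they were -0.090 and -0.12 for Mcm4 and -0.18 and -0.28 for Top2a. Genes with a mean of at least 50 counts gave -0.0080 for Mcm4. With the first number as a block Mcm4 was at -0.045 and Top2a at -0.069, and with both numbers as a block at -0.13 and -0.25. Within number 1 they were -0.36 for Mcm4, -0.012 for Tyms, -0.59 for Top2a, -0.49 for Plk1, -0.90 for Stmn1, -0.16 for Hmgb2 and -0.32 for Ccnb2. Within number 2 they were -0.0086 for Pcna, 0.30 for Smc2, -0.23 for Ccnd3 and -0.020 for Cdk2. With a library left out, estimates ran from -0.044 to 0.15 for Mcm2, -0.21 to 0.20 for Mcm4, -0.11 to 0.63 for Rrm1, -0.075 to 0.34 for Tyms, -0.30 to 0.18 for Top2a, -0.18 to 0.89 for Stmn1, -0.069 to 0.47 for Ccnd3 and -0.081 to 0.20 for Cdk2. The cause of these changes was not tested. At this depth 14 members fell below the filter.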
